A study of Mus musculus with 9 samples.

Results

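Somite and striated muscle genes, 9 in all, were followed here across mouse neural crest samples: the mesoderm and somite regulators Tbx6, Mesp2, Tcf15, Meox1 and Myf5, and the contractile genes Actc1, Acta1, Tnnc1 and Tnnt2. Every probe set annotated to exactly 1 of these symbols was taken, which gave 11 of the 45101 probe sets on the array, for 9 of 18193 annotated genes: 3 for Tnnt2 and 1 for each of the other 8. The samples were 9 Affymetrix arrays, 3 per stage, hybridised with RNA of cells cut out by laser capture microdissection. The submitters describe the cells as neural crest cells, taken from E8.5 embryos during neural tube closure, from the dorsal root ganglion at E13.5, and from the adrenal medulla of adults aged 3 months (P90). Strain, genotype and sex are not given in the sources used here, no treatment is named, and no other tissue serves as a control. Stage and tissue changed together, so the effect of age and the effect of site cannot be told apart. The labels call the 3 samples of a stage biological replicates without saying how many animals each capture held, so the p-values measure the spread between these samples.

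Somites are paired blocks of paraxial mesoderm that form beside the neural tube and give rise to vertebrae, dermis and skeletal muscle. Tbx6 and Mesp2 act in the unsegmented mesoderm and at the forming somite border, Tcf15 (paraxis) and Meox1 in the epithelial somite, and Myf5 is the first of the myogenic regulatory factors to be switched on in the mouse somite. Actc1 and Acta1 are the cardiac and skeletal muscle alpha-actins, and Tnnc1 and Tnnt2 are the slow skeletal and cardiac troponin C and the cardiac troponin T of the thin filament. The early trunk neural crest migrates through the somites, and the dorsal root ganglia and the adrenal medulla both hold its descendants.

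The arrays differed in ways that bear on these genes. Median signals lay between 38.29 and 48.15, and log2 profiles of arrays from the same stage correlated at 0.803 to 0.983, against 0.696 to 0.855 between stages. For Actb, the log2 signal at the transcript's 3' end less that at its 5' end, a measure that widens as labelled RNA gets shorter, was 4.82, 2.05 and 2.39 on E8.5 replicates 1, 2 and 3, then 0.851, 6.996 and 2.87 at E13.5, and 1.36, 4.09 and 3.51 at P90. On E13.5 replicate 1, 12 of 71 probe sets of contractile genes (16.9%) had an empty cell in the deposited table, against 3.11% of all probe sets on that array, and the reason is not stated. The other 8 arrays had 0 to 3 such empty cells. Empty cells were not particular to contractile genes: on the same array they made up 43.8% of sensory neuron and 34.8% of mesenchyme probe sets, and on the P90 arrays 53.8 to 84.6% of adrenal cortex probe sets. They gathered by stage: the sensory neuron and mesenchyme lists had them on E13.5 arrays alone, and the chromaffin list on P90 arrays alone (16.7 to 25%). How leaving them out shifts stage means, list counts and sums, or the means of Actc1 and Meox1, was not tested. The sensory neuron regulator Isl1 had mean signals of 58.9, 4513 and 1128 in order of stage. Tyrosine hydroxylase (Th) had 117, 811 and 4439, its cell on P90 replicate 1 being empty. Both had higher means at both later stages than at E8.5, so neither marks 1 tissue alone. At E13.5 against E8.5, 2 of 4 sensory neuron genes tested rose, where 8.82% of all genes did. At P90 against E13.5, 6 of 6 chromaffin genes tested rose, where 3.18% of all genes did. The crest regulator Sox10 averaged 282, 472 and 109. Of the 8 crest and neural tube genes, 3 fell and none rose at E13.5 against E8.5, where 6.77% of all genes fell. Their median change was -0.93 against 0.02 for all genes. At P90 against E8.5, 5 fell and none rose, where 11.8% of all genes fell, with a median of -1.37 against 0.005.

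Replicate 1 of P90 stood apart in cell type markers. It was the lowest P90 array for 5 of 5 chromaffin genes with values on all 3 and the highest for 6 of 7 mesenchyme, 5 of 5 smooth muscle and 4 of 5 endothelial genes, where it was the lowest for 28.5% and the highest for 54.4% of all genes. Phenylethanolamine N-methyltransferase (Pnmt), the enzyme that makes adrenaline, gave 633 there against 3749 and 3289 on replicates 2 and 3. Without this array the log2 changes of Myf5 and Tcf15 at P90 against E8.5 were -3.26 and -2.41 (limma adjusted p = 0.00584 and 0.0156), and that of Actc1 at P90 against E13.5 was -2.25 (adjusted p = 0.0171). Replicate 1 of E8.5 was likewise the lowest of its stage for 6 of 6 endothelial, 5 of 5 epithelial, 3 of 3 red cell, 4 of 5 smooth muscle and 6 of 8 crest and neural tube genes, where it was the lowest for 40.4% of all genes.

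Promoter sequence is shown for the contractile genes called between stages, Actc1 and Tnnc1, and for Acta1, the second alpha-actin, because serum response factor and myogenic basic helix-loop-helix factors are known to act on muscle promoters. RefSeq windows (GRCm38.p6) were matched for 7 of the 9 genes. Each line gives the 250 bases before the annotated start, 5′ to 3′ on the gene's strand. Capitals mark the CArG box, the E-box motif CANNTG, and the motif TATAAA of the core promoter.
Actc1, chr2:114052876-114053125, minus strand: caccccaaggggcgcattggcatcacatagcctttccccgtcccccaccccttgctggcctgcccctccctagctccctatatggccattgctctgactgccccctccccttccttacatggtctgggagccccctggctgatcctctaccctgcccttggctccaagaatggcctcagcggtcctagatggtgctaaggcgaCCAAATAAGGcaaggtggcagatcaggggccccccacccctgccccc
Acta1, chr8:123894776-123895025, minus strand: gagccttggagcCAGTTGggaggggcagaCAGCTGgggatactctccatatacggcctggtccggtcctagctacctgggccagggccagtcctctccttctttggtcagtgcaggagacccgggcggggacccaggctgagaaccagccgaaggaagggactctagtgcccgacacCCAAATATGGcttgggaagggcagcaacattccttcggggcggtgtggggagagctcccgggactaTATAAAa
Tnnc1, chr14:31208062-31208311, plus strand: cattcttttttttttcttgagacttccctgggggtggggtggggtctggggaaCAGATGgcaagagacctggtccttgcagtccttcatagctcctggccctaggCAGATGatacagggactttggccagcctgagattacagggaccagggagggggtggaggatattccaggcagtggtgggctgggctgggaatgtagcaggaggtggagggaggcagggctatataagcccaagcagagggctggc
A CArG box began 47 bases before the start of Actc1 and 73 bases before that of Acta1, a motif found in 1.47% of 32851 windows of this length. The window of Mesp2, not a contractile gene and not printed here, also held a CArG box, which began 217 bases before its start. E-boxes began 238 and 221 bases before the start of Acta1 and 197 and 145 before that of Tnnc1, and 66.2% of all windows held one on either strand. TATAAA began 7 bases before the annotated start of Acta1 and was held by 12.4% of windows. Both strands were searched for each motif. These matches describe the letters in the windows and do not show binding.

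The somite regulators divided into genes seen at E8.5 and genes at low signal throughout. Meox1, Myf5 and Tcf15 had their highest means at E8.5, while Tbx6 and Mesp2 had low signals at all 3 stages. The plot of member signals by array shows both patterns.

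Meox1, a homeobox gene of the somite, had signals of 1288 and 1226 on E8.5 replicates 2 and 3, and its cell on replicate 1 was empty. Its signals were 7.22, 15.5 and 13.8 on the E13.5 arrays and 11.8, 9.69 and 8.08 on the P90 arrays. It was therefore bright on both E8.5 arrays that measured it and dim on all 6 later ones. Because it passed the signal limit of 26.1 on 2 arrays, fewer than the 3 required, it was not in the table tested. When 34100 probe sets were tested with no limit on signal, Meox1 was lower at E13.5 than at E8.5, with a log2 change of -5.51 ± 0.27 (SE, limma adjusted p = 6.73e-05). At P90 against E8.5 the change was -5.62 ± 0.27 (limma adjusted p = 3.13e-05), and P90 and E13.5 differed by -0.12 (adjusted p = 0.882). Leaving out E8.5 replicate 2 or 3 as well, which leaves 1 value for that stage with its spread taken from the other stages, gave -5.47 and -5.54 at E13.5 against E8.5 (adjusted p = 0.00111 and 0.00101). The tests on all arrays called 9.33%, 13.6% and 4.62% of the 34100 probe sets in the order in which the 3 comparisons are given.

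Myf5, the myogenic factor, had signals of 34.6, 397 and 202 on the E8.5 arrays, 2.34, 4.98 and 3.32 on the E13.5 arrays, and 2.38, 1.15 and 1.39 on the P90 arrays. Every E8.5 array stood above every later array, and E8.5 replicate 1 lay far below the other 2. Changes are differences of mean log2(signal + 16), tested with limma over 24012 probe sets with Benjamini-Hochberg adjustment and called at an adjusted p under 0.05; the added 16 understates changes of dim genes. Myf5 fell at E13.5 against E8.5, with a change of -3.09 ± 0.57 on this log2 scale (SE, adjusted p = 0.0045). At P90 against E8.5 it fell by 3.23 ± 0.57 (adjusted p = 0.00255), while P90 and E13.5 differed by -0.15 (adjusted p = 0.936). Myf5 entered the table through its 3 E8.5 arrays alone, where it was high, and it left the table whenever 1 of them was removed. With no limit on signal, the change at E13.5 against E8.5 was -3.94, -2.43 and -2.89 without E8.5 replicate 1, 2 and 3, and the last of these lost the call (adjusted p = 0.000508, 0.0343 and 0.0558). The matching changes at P90 against E8.5 were -4.09, -2.57 and -3.04, all called (adjusted p = 0.000208, 0.0193 and 0.0343).

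Tcf15, the basic helix-loop-helix factor of the epithelial somite, had signals of 976, 304 and 171 on the E8.5 arrays, 116, 193 and 166 on the E13.5 arrays, and 63.8, 60.6 and 54.1 on the P90 arrays. The P90 arrays were below all others, while the E13.5 and E8.5 arrays overlapped. At P90 against E8.5 it fell by 2.37 ± 0.52 on the log2 scale (adjusted p = 0.00822). Neither step alone was called: the change was -1.19 ± 0.52 at E13.5 against E8.5 (adjusted p = 0.164) and -1.18 ± 0.52 at P90 against E13.5 (adjusted p = 0.238). E8.5 replicate 1, the highest array for Tcf15, was the lowest of its stage for Myf5, so these genes did not rank the E8.5 arrays alike. Without that array the change of Tcf15 at P90 against E8.5 was -1.70 and was still called (adjusted p = 0.0113).

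Tbx6, a T-box factor of the presomitic mesoderm, had signals of 26.9, 40.4 and 21.8 on the E8.5 arrays, 22.3, 43.8 and 19.2 on the E13.5 arrays, and 33.9, 33.9 and 22.9 on the P90 arrays. The stages overlapped, with changes of -0.06 at E13.5 against E8.5 (adjusted p = 0.921), 0.09 at P90 against E13.5 (0.911) and 0.03 at P90 against E8.5 (0.959), each with an SE of 0.27. Mesp2, a factor of the segment border, did not pass the signal limit on any array. Its signals were 3.20, 5.73 and 2.06 on the E8.5 arrays, 4.15, 2.93 and 3.47 on the E13.5 arrays, and 4.90, 9.36 and 4.47 on the P90 arrays. The 3 P90 arrays stood above the 3 E13.5 arrays and overlapped with the E8.5 arrays. With no limit on signal, the change at P90 against E13.5 was 0.18 (limma adjusted p = 0.482), at signals that allow no firm comparison.

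**Figure D1:**
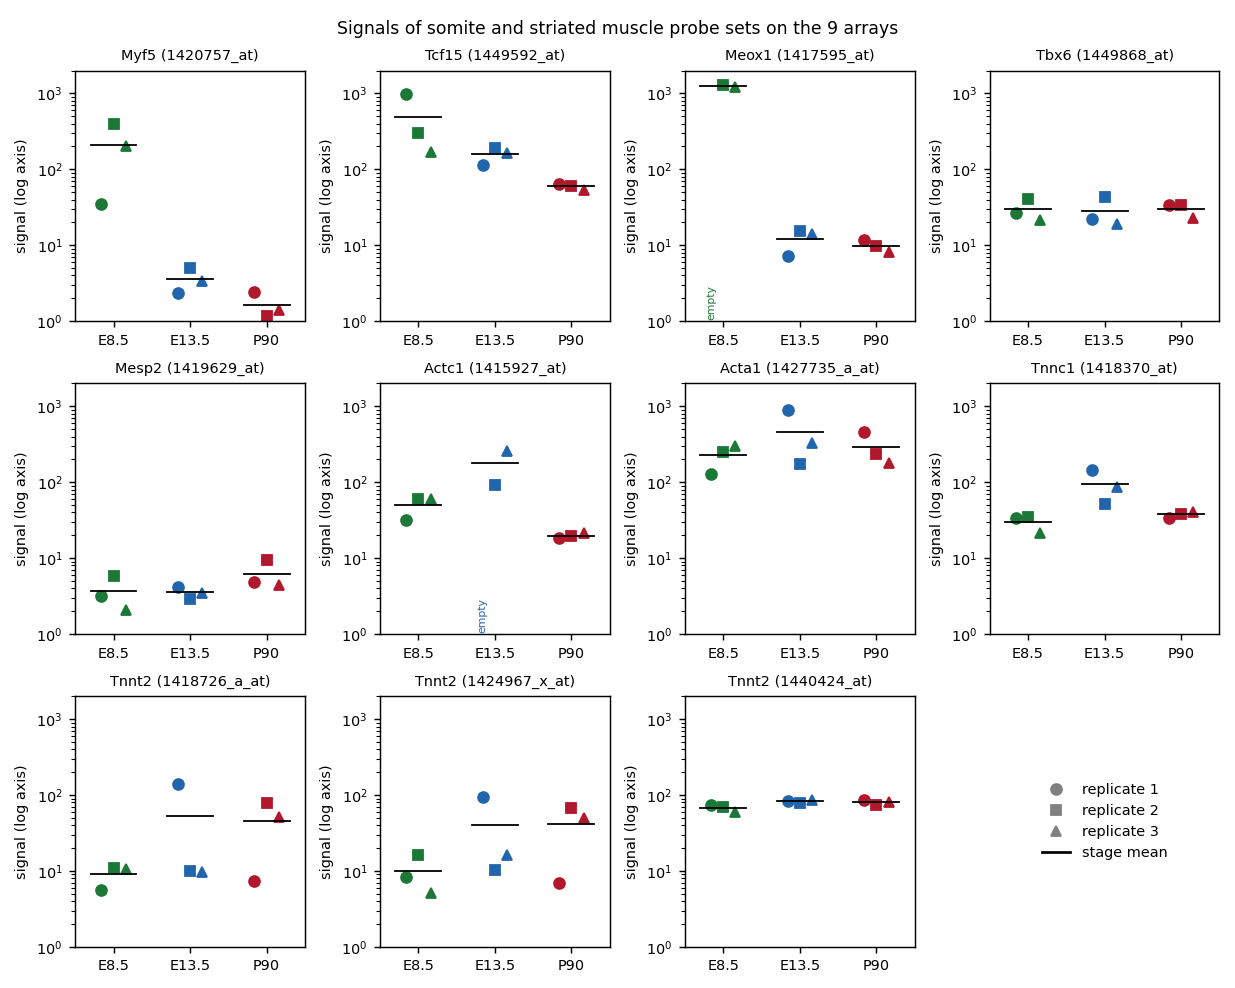
Signal (log axis) of each of the 11 member probe sets on the 9 arrays, by stage; points are arrays, lines are stage means, and an empty cell is marked as such. Myf5 and Meox1 are high at E8.5 alone, Actc1 and Tnnc1 stand highest at E13.5, and Tbx6 and Mesp2 stay low at all 3 stages.

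Of the 4 contractile genes, 2 (Actc1 and Tnnc1) were called higher at E13.5 than at E8.5, where 8.82% of all genes were. Acta1 and Tnnt2 were not called, so the 4 did not share a course. Actc1, the cardiac alpha-actin that is also made in embryonic skeletal muscle, had signals of 31.9, 59.4 and 60.9 on the E8.5 arrays, 92.9 and 261 on E13.5 replicates 2 and 3 with an empty cell on replicate 1, and 18.4, 19.5 and 21.5 on the P90 arrays. The 3 stages did not overlap. Actc1 passed the signal limit through its E8.5 and E13.5 arrays alone, where it was higher than at P90. At E13.5 against E8.5 it rose by 1.41 ± 0.40 on the log2 scale (adjusted p = 0.041, fitted on the 8 arrays with a value). At P90 against E13.5 it fell by 2.28 ± 0.40 (adjusted p = 0.00722), and P90 against E8.5 gave -0.87 ± 0.36, which was not called (adjusted p = 0.118). The rise was close to the threshold. It was not called with no limit on signal (adjusted p = 0.0752) or with 1 in place of 16 added to the signals (0.0503), nor without any 1 of the 3 E8.5 arrays, E13.5 replicate 3, P90 replicate 2 or P90 replicate 3 (adjusted p = 0.064 to 0.298). Without E13.5 replicate 3 it was 0.74, and the change at P90 against E13.5 was then -1.61 and not called (adjusted p = 0.0675).

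Tnnc1, the calcium-binding troponin subunit of slow and cardiac muscle, had signals of 33.9, 34.6 and 21.4 on the E8.5 arrays, 145, 50.9 and 86.7 on the E13.5 arrays, and 33.8, 38.5 and 40.5 on the P90 arrays. The E13.5 arrays were above all others. It rose at E13.5 against E8.5 by 1.18 ± 0.32 on the log2 scale (adjusted p = 0.0279). At P90 against E13.5 the change was -0.95 and missed the threshold (adjusted p = 0.107), and P90 against E8.5 gave 0.23 (adjusted p = 0.652). The rise was not called with no limit on signal (adjusted p = 0.0502), nor without any 1 of the 3 E8.5 arrays, E13.5 replicate 1 or E13.5 replicate 3 (adjusted p = 0.0583 to 0.117). Without E13.5 replicate 2 the change at P90 against E13.5 was -1.27 and was called (adjusted p = 0.0189).

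Acta1, the skeletal alpha-actin, passed the test in no comparison. Its signals were 130, 248 and 303 on the E8.5 arrays, 888, 176 and 332 on the E13.5 arrays, and 465, 239 and 181 on the P90 arrays. All stages overlapped, and the change was 0.76 at E13.5 against E8.5 (adjusted p = 0.456), -0.44 at P90 against E13.5 (0.766) and 0.33 at P90 against E8.5 (0.743). Its highest array at each of the later 2 stages was replicate 1, the array of that stage with the smallest Actb difference between 3' and 5' ends; the part of that difference in the signal was not tested.

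Tnnt2, cardiac troponin T, was read by 3 probe sets that disagreed. The first (1418726_a_at) gave 5.60, 11.05 and 10.5 on the E8.5 arrays, 138, 10.1 and 9.70 on the E13.5 arrays, and 7.29, 78.1 and 50.8 on the P90 arrays. The second (1424967_x_at) gave 8.33, 16.1 and 5.18 at E8.5, 92.9, 10.3 and 16.4 at E13.5, and 6.84, 67.4 and 50.6 at P90, so both were raised on the same 3 arrays: E13.5 replicate 1 and P90 replicates 2 and 3. The third (1440424_at) gave 73.5, 68.9 and 60.6, then 82.4, 78.5 and 86.7, then 86.2, 73.5 and 81.4, with no such pattern. None was called in any comparison, with changes between -0.03 and 1.08 and adjusted p from 0.249 to 0.967. The first 2 passed the signal limit through those 3 arrays alone. Isl1 was also low on P90 replicate 1, at 88.9 against 1876 and 1420 on replicates 2 and 3, as were the chromaffin genes; their part in the Tnnt2 signals was not tested.

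Member calls are set beside the calls over the whole array. At E13.5 against E8.5, 3 of the 9 member probe sets tested were called, 2 higher (Actc1 and Tnnc1) and 1 lower (Myf5), where 15% of all 24012 probe sets were called, 7.99% higher and 6.98% lower. At P90 against E13.5, 1 of 9 was called, lower (Actc1), where 7.48% of all were called, 4.6% lower and 2.88% higher. At P90 against E8.5, 2 of 9 were called, both lower (Myf5 and Tcf15), where 20.8% of all were called, 11.2% lower and 9.57% higher. The stages of all 24012 probe sets did not overlap in 34.4%, 22.5% and 43% of cases in these comparisons. Myf5 and the first 2 Tnnt2 probe sets passed the signal limit through the arrays where they were high alone. Actc1 passed it on 3 E8.5 and 2 E13.5 arrays and on no P90 array. The share of called members is therefore not read against these backgrounds.

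**Figure D2:**
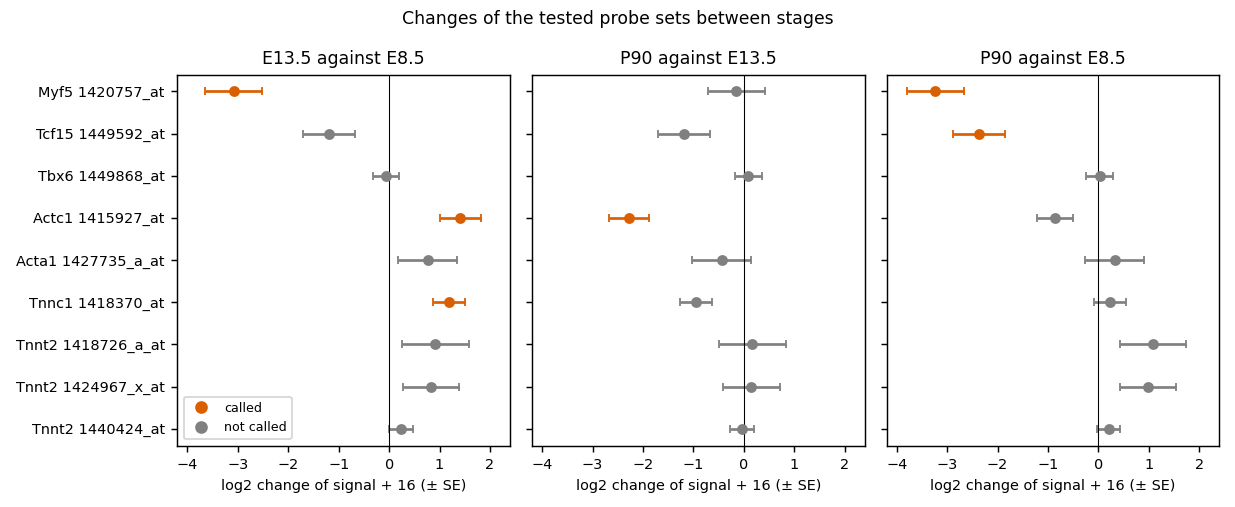
Log2 change of each member probe set tested, with its standard error, in each of the 3 comparisons of stages. Myf5 and Tcf15 lie left of 0 at P90 against E8.5, and Actc1 lies right of 0 at E13.5 against E8.5 and left of it at P90 against E13.5.

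Genes of related pathways were counted by the brightest probe set of each gene, and the same count over all 13747 genes called 15.6% at E13.5 against E8.5 (8.82% higher, 6.77% lower). It called 8.58% at P90 against E13.5, with 3.18% higher and 5.4% lower, while P90 against E8.5 gave 22%, with 10.3% higher and 11.8% lower. Other genes of the segmentation clock divided into a few with clear signal, such as Nrarp, and several near the signal limit or under it. Of 13 listed genes 4 were tested. None was called by limma at E13.5 against E8.5 or P90 against E13.5, where 0 and 1 had an unadjusted p under 0.05, and 1 fell at P90 against E8.5, where the median change was -0.49 against 0.005 for all genes. That gene was Nrarp, a Notch feedback inhibitor, with a mean of 319 at P90 and 973 at E8.5 and a change of -1.57 (adjusted p = 0.0335), a call lost without P90 replicate 2 or 3 or any 1 E8.5 array (0.0577 to 0.118). Its signals were 432, 302 and 222 on the P90 arrays and 1312, 903 and 706 on the E8.5 arrays. The 7 annotated genes that were not tested reached at most 48.0, among them Msgn1, Hes7, Lfng and Ripply2, which are named here after their values were seen.

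Among 15 genes of the somite and its derivatives, 10 were tested. At E13.5 against E8.5, 1 fell and none rose, with a median change of -0.60 against 0.02 for all genes, and at P90 against E8.5 4 fell and none rose, with a median of -0.90 against 0.005. Pax3, a paired-box factor of the dermomyotome and equally of the dorsal neural tube and early crest, led both, with signals of 671, 1882 and 1297 at E8.5, 63.2, 186 and 101 at E13.5, and 137, 162 and 148 at P90. Its changes were -3.28 ± 0.46 at E13.5 against E8.5 (adjusted p = 0.000999) and -2.86 at P90 against E8.5 (adjusted p = 0.00148). Foxc2, a forkhead factor of the sclerotome, had a mean of 20.2 at P90 against 143 at E8.5, a change of -2.10 (adjusted p = 0.00198). These calls of Pax3 and Foxc2 held in every alternative run.

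At P90 against E13.5 in that list, 1 gene rose and 2 fell. Eya1, a transcriptional cofactor of early myogenesis and of placodes, rose by 3.91 ± 0.62 (adjusted p = 0.00419) to a mean of 764 at P90, against 29.4 at E13.5; its P90 signals were 236, 1138 and 918. Tbx18, a T-box factor of the anterior somite compartment, fell by 1.60 (adjusted p = 0.0163) and lost the call without P90 replicate 2 or 3 (0.0794 to 0.0796). Foxc2 fell by 1.49 (adjusted p = 0.0272) and lost the call when either of E13.5 replicates 1 and 3 or of P90 replicates 2 and 3 was removed (0.0759 to 0.14).

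E8.5 replicate 1, the lowest array for Myf5, was the lowest of its stage for 7 of 9 genes of this list with values on all 3 (77.8%). As given for the arrays, it was also the lowest for most genes of several other cell type lists, so the ranking is not one of somite genes alone. Foxc1, chosen after its values were seen, gave 70.9, 212 and 146 on E8.5 replicates 1, 2 and 3. Tcf15 went the other way. The same array had the widest Actb difference of its stage, and the part of either fact in the other was not tested.

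No gene of the myogenic regulation list was called in any comparison by limma, with 7 of 15 tested and median changes of 0.33, -0.25 and 0.14. An unadjusted p under 0.05 was reached by 2, 1 and 1 of them. Of the other myogenic factors, named here after their values were seen, Myod1 and Myf6 reached at most 25.4 and 18.8 on any array. Neither was tested, since both stayed under the signal limit on every array. Myog was tested and gave 17.2, 29.0 and 29.4 at E8.5, 33.8, 39.0 and 33.5 at E13.5, and 14.7, 35.3 and 41.4 at P90. Its E13.5 arrays stood above its E8.5 arrays without a call (limma adjusted p = 0.485). Mef2c, a cofactor of the myogenic factors that is also made in neurons and blood vessels, was named after its values were seen and gave 14.0, 197 and 279 on the E8.5 arrays, lowest on replicate 1 as Myf5 was.

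In the sarcomere list, 19 of 34 genes were tested. At E13.5 against E8.5 1 rose and none fell, at P90 against E13.5 2 fell, and at P90 against E8.5 1 rose and 1 fell, with medians of 0.15, -0.15 and -0.005 against 0.02, -0.05 and 0.005 for all genes. Tnnt3, the fast skeletal troponin T, had signals of 14.4, 13.9 and 20.2 at E8.5, 191, 81.7 and 111 at E13.5, and 14.8, 40.6 and 44.2 at P90, a course like that of Tnnc1. It rose by 2.10 ± 0.34 at E13.5 against E8.5 (adjusted p = 0.00213), and this held in every alternative run. It fell by 1.54 at P90 against E13.5 (adjusted p = 0.019), a call lost without E13.5 replicate 3 or P90 replicate 1 (0.0705 and 0.0505).

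Mylpf, the fast skeletal regulatory light chain, had an empty cell on E13.5 replicate 1. It fell by 1.05 at P90 against E13.5 (adjusted p = 0.0442) and by 0.81 at P90 against E8.5 (adjusted p = 0.0392). The first call was lost without replicate 2 or 3 of either embryonic stage or any P90 array (0.0701 to 0.234), and the second without E13.5 replicate 3 or any array of the other 2 stages (0.0594 to 0.105). Neb, the giant thin-filament protein nebulin, rose by 1.15 at P90 against E8.5 (adjusted p = 0.0199), with means of 36.1 at P90 and 7.38 at E8.5, and lost the call without P90 replicate 2 or 3 or any E8.5 array (0.0526 to 0.0692).

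Some contractile genes were highest on E13.5 replicate 1, but the lists did not share this. It was the highest E13.5 array for 11 of 18 sarcomere genes (61.1%), near the 45.9% over all genes, for 2 of 6 members with values on all 3 arrays and for 2 of 16 heart genes, of which 9 were lowest there. It was also the highest for 4 of 5 smooth muscle and 5 of 7 endothelial genes. Titin (Ttn), chosen after its values were seen, gave 43.7, 33.8 and 45.9 at E8.5, 488, 40.9 and 138 at E13.5, and 23.9, 27.9 and 35.2 at P90, with a change of 1.53 at E13.5 against E8.5 that was not called (adjusted p = 0.118). The genes with at least 1 empty probe set on that array were Actc1, Myh3, Myh8, Mylpf, Tnnc2, Tnni2, Tpm2, Ckm, Mybpc1 and Ldb3, and for Actc1, the only one of them among the members, no other probe set gives a value. It also had the narrowest Actb difference of the 9 arrays, and its part in these signals was not tested.

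**Figure D3:**
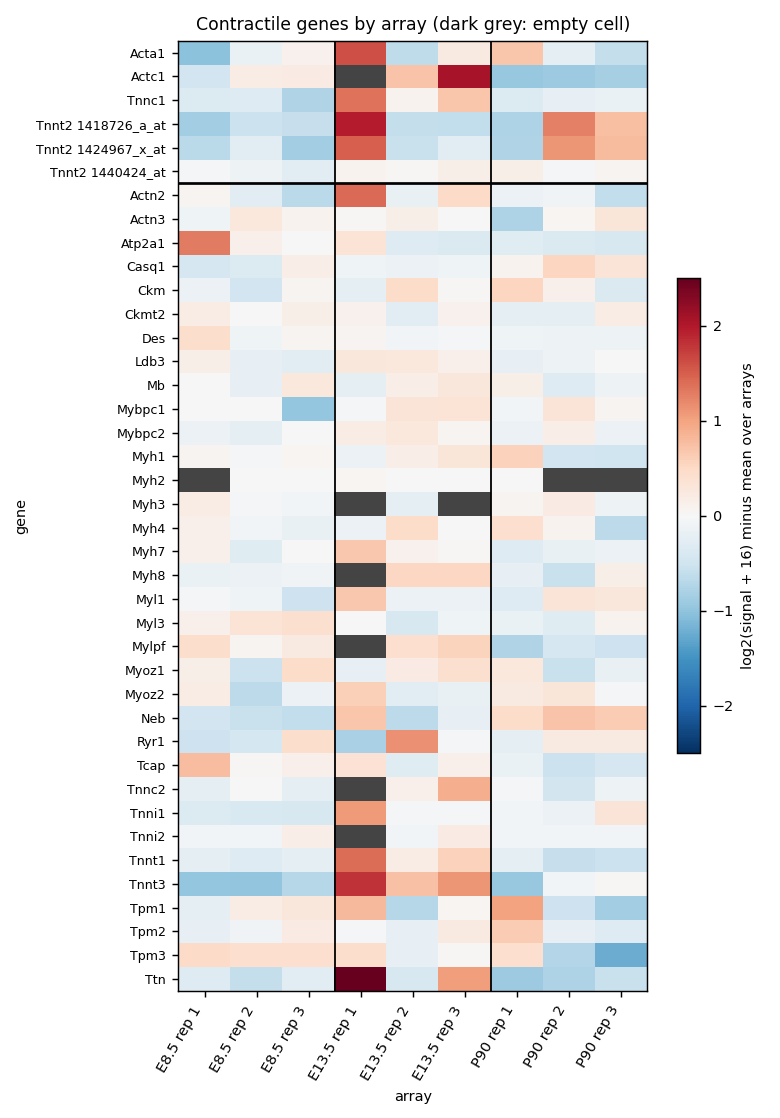
Log2(signal + 16) of the 4 contractile members (top) and the sarcomere genes on the 9 arrays, each centred on its mean; dark grey cells are empty in the deposited table. On E13.5 replicate 1, Actc1 is empty while Acta1, Tnnc1, Tnnt3 and Ttn are at their highest.

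Heart genes, of which 17 of 20 were tested, were not called by limma at E13.5 against E8.5 or at P90 against E13.5, where 2 had an unadjusted p under 0.05 in each. At P90 against E8.5, 2 rose and none fell, with a median change of 0.33 against 0.005 for all genes. Ryr2, the cardiac ryanodine receptor that is also made in neurons, had P90 signals of 24.2, 467 and 310 and a change of 2.91 (adjusted p = 0.015). Tbx20, a cardiac T-box factor also found in motor neurons, had P90 signals of 37.3, 265 and 196 and a change of 1.62 (adjusted p = 0.0463). Both were lowest on P90 replicate 1, as were Eya1, Isl1, the first 2 Tnnt2 probe sets and the 5 chromaffin genes, and without that array the changes were 4.01 for Ryr2 and 2.36 for Tbx20 (adjusted p = 2.82e-05 and 0.000463). The call of Ryr2 was lost without E8.5 replicate 2 or P90 replicate 2 or 3 (0.058 to 0.0668), and that of Tbx20 when E13.5 replicate 3, either of P90 replicates 2 and 3, or any E8.5 array was removed (0.068 to 0.172).

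In the smooth muscle list, 5 of 9 genes were tested and 1 rose, at P90 against E8.5, with median changes of 0.38, -0.28 and 0.40 in the 3 comparisons. In the other two, 1 and 2 genes had an unadjusted p under 0.05 in limma. Tagln, an actin-binding protein of smooth muscle, rose by 2.21 (adjusted p = 0.0356), with means of 201 at P90 and 26.7 at E8.5, and lost the call without P90 replicate 1 or 2 or any E8.5 array (0.0586 to 0.125). Without P90 replicate 1, the highest P90 array for all 5 of these genes, its change was 1.70 (adjusted p = 0.0948).

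**Figure D4:**
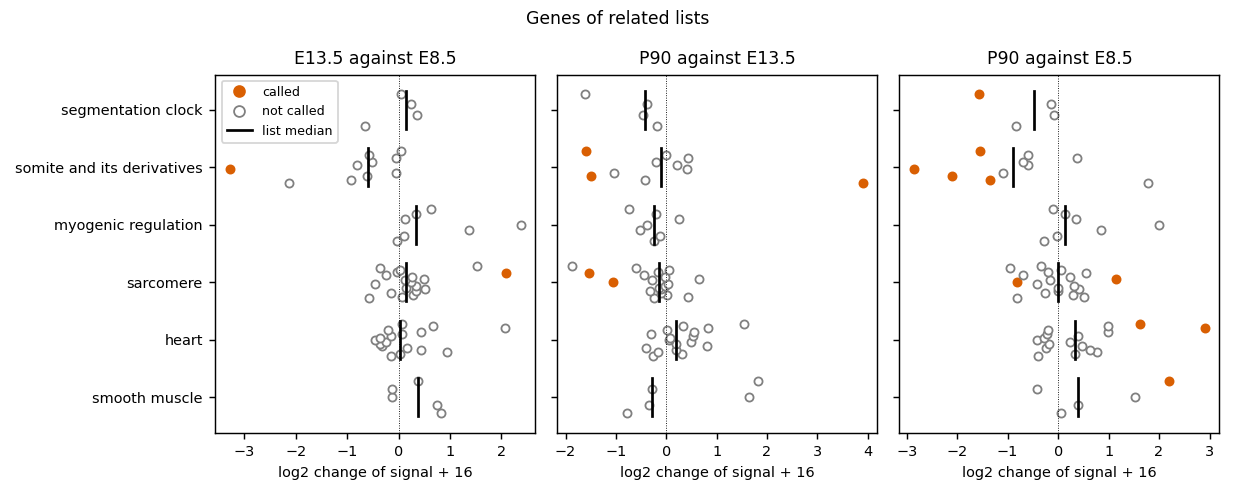
Log2 change of each tested gene in the 6 related lists for the 3 comparisons, with the list median; filled points passed the test. The somite list lies mostly below 0 at P90 against E8.5, and the sarcomere list is centred near 0 in all 3 comparisons.

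Markers of neighbouring cell types gave signal, and some of them moved between stages. The summed signal of 6 mesenchyme genes lay between 1875 and 2639 on the E8.5 arrays, 4034 and 13212 at E13.5, and 1351 and 6041 at P90. Of 7 tested, 2 were higher at E13.5 than at E8.5, where 8.82% of all genes were. Of those 7, 2 fell and none rose at P90 against E13.5, where 5.4% of all genes fell. At P90 against E8.5, 1 rose and 1 fell, where 10.3% of all genes rose and 11.8% fell. The first gene of that list, decorin (Dcn), a connective tissue proteoglycan, had mean signals of 26.3, 2201 and 1158 in order of stage. Others in the list took a different course: Twist1, chosen after its values were seen, averaged 218, 127 and 12.9. The summed signal of 4 epithelial genes lay between 903 and 2725 on the E8.5 arrays, 81.5 and 117 on the E13.5 arrays, and 85.0 and 198 on the P90 arrays. Of 5 tested, 4 were lower at E13.5 than at E8.5 and 5 at P90 than at E8.5, where 6.77% and 11.8% of all genes were. At P90 against E13.5, no endothelial gene of 7 and no adrenal cortex gene of 3 was called. At E13.5 against E8.5, 2 and 1 of them rose, and at P90 against E8.5, 1 and 1 rose. Of 4 red cell genes, 2 rose and 1 fell at E13.5 against E8.5. The 8 somite list genes with a value on every array summed to 1407 to 3241, 967 to 978, and 538 to 705 in order of stage. Eya1 and Pax9 were left out of this sum because each had an empty cell. Eya1 had means of 29.4 at E13.5 and 764 at P90, the latter above the P90 sums. The lower sums at P90 than at E13.5 therefore hold for these 8 genes and not for the whole list. Much of the E8.5 sum was Pax3, equally a gene of the dorsal neural tube and early crest. It gave 671, 1882 and 1297 at E8.5 and 63.2, 186 and 101 at E13.5. Pax3 was the only gene of that list called at E13.5 against E8.5, so the sum does not follow somite genes alone. In bulk samples, fewer cells of a type and less RNA per cell cannot be told apart, and the part of neighbouring tissue in the member signals was not tested.

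For each member probe set tested and without an empty cell, the genes with the nearest profile were found among 12754 genes. Nearness was the root mean square difference of centred log2 values over the 9 arrays. Myf5 was nearest to Zfp991 (0.364), Dsg2 (0.385) and Ndc80 (0.4), and Tcf15 to Elp6 (0.342), Gli1 (0.376) and Taf1d (0.377). Tnnc1 was nearest to Dlk2 (0.168), Gria1 (0.175) and Afap1l2 (0.18), and Acta1 to Cd34 (0.191), Klhl8 (0.229) and Gpd1l (0.266). Both dim Tnnt2 probe sets were nearest to Ncald, Tmem179 and Garnl3, at 0.308, 0.318 and 0.417 for the first and 0.256, 0.262 and 0.27 for the second. The flat profiles of Tbx6 (Ccdc87, Foxp3 and Pmch, 0.112 to 0.146) and of the third Tnnt2 probe set (Klkb1, Tspy-ps and Tfcp2, 0.073 to 0.102) gave small differences because their own values hardly moved. None of the nearest genes was another member.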

How the data were processed

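Laser-captured cells of 3 stages gave 9 Affymetrix arrays. The starting amount was 400 ng of total RNA, per the labels' protocols. The deposited table holds 1 linear intensity per probe set and array, with a lowest value of 1. The submitters' processing notes list RMA, GCRMA, MAS5 and GCOS, and which of them made the values is not stated. Of 405909 cells, 8048 (1.98%) were empty and were left out. Probe sets were named through the platform annotation.

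Arrays were not scaled again, and log2(signal + 16) was analysed. A probe set was tested if at least 3 of its 9 signals exceeded 26.1 (the 40th percentile over the table) and it had at least 2 values per stage, which 24012 did. Stages were compared pairwise in 1 limma fit over all 9 arrays (limma 3.58.1 in R 4.3.3, two-sided, lmFit and eBayes with trend). P-values were adjusted over all probe sets tested by Benjamini-Hochberg. Lists were counted by the brightest probe set of each of 13747 genes. The fit was tested on simulated data.

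The members and the gene lists were chosen with earlier results of these data known. Named are all member probe sets, up to 2 called genes rising and 2 falling most from each related list and comparison, the first gene of a check list, and the 3 genes nearest in profile to each member without an empty cell. Not every check list's first gene is given. The number of arrays limits the precision. Same-numbered arrays of 2 stages deviated together with correlations from -0.358 to 0.424, so replicate numbers were not taken as pairs.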

Additional observations from a re-analysis of the deposited data

How the results depend on the processing

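The member changes that kept their call under every alternative run were those of Tcf15 at P90 against E8.5 (-2.90 to -1.70 leaving out 1 array) and, wherever it was tested with all arrays, of Myf5. The 3 members called at E13.5 against E8.5 were 0 with a filter at the 60th percentile, which removes all 3 from the test, 1 in a fit of only the 6 arrays compared, and 0 to 3 leaving out 1 array, 0 without any 1 of the E8.5 arrays. With no filter and all arrays the count was 2, but these were Myf5 and Meox1, since Actc1 and Tnnc1 then missed the threshold (adjusted p = 0.0752 and 0.0502); without E8.5 replicate 3 as well, 1 was called. The 1 member called at P90 against E13.5 was 0 with the 60th percentile filter, with only probe sets without an empty cell and with only 6 arrays, each of which leaves Actc1 untested, 2 with the Actb difference as a covariate, and 0 to 2 leaving out 1 array. The 2 called at P90 against E8.5 were 1 with the 60th percentile filter, 1 when each stage lost its array of widest Actb difference (both leave Myf5 untested), and 1 to 3 leaving out 1 array. The covariate and the unfiltered fits without an E8.5 array were chosen after seeing the data.

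With the replicate number as a block, the member counts stayed within 1.5 times of those given, and Actc1 at E13.5 against E8.5 was 1.29 and no longer called (adjusted p = 0.101); where a call was lost the cause was not tested. Of all 24012 probe sets, 3594 were called at E13.5 against E8.5, but 5398 with the covariate; at P90 against E13.5 the counts were 1795 and 3046, and 1003 with only 6 arrays. Leaving out 1 array moved the counts behind the background shares in either direction. Without E13.5 replicate 2 all 3 rose, to 3750, 2400 and 6306 in order of comparison. Without P90 replicate 1 the first and last rose to 4266 and 5345, while the middle one fell to 1628. Without E13.5 replicate 1 the last rose to 5611, while the others fell to 3307 and 1423. The lowest counts came from other arrays. At E13.5 against E8.5, 1806 were called without E8.5 replicate 2, 2026 without E8.5 replicate 3 and 2105 without E13.5 replicate 3. At P90 against E13.5, 742 were called without E13.5 replicate 3, 1023 without P90 replicate 2 and 1050 without P90 replicate 3. At P90 against E8.5, where 4993 were called on all arrays, 2886, 3234 and 3081 were called without E8.5 replicate 2, E8.5 replicate 3 and P90 replicate 2. Without the array of widest Actb difference in each stage the 3 counts were 2358, 1166 and 3059. Uncalled changes near 0 changed sign for some settings. Tbx6 spanned -0.297 to 0.1, -0.058 to 0.324 and -0.1 to 0.189 leaving out 1 array in the 3 comparisons, and at P90 against E8.5 was -0.105 after quantile normalization and -0.007 without both the filter and E8.5 replicate 1. Acta1 spanned -0.954 to 0.165 at P90 against E13.5 and -0.042 to 0.601 at P90 against E8.5, where it was -0.006 without both the filter and E8.5 replicate 1. At P90 against E13.5 the Tnnt2 probe sets spanned -0.266 to 0.758, -0.241 to 0.719 and -0.077 to 0.019.

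Background correction and slide could not be varied on a processed table. Simulated data had 200 of 24012 probe sets changed, drawn without regard to signal. In them a log2 change of 1 was found in 2 to 7% of cases and a change of 2 in 41 to 46%. The real comparisons called 7.48 to 20.8% of probe sets. Fewer changed probe sets make the adjusted threshold stricter, so these figures can understate recovery here. They give no figure for members at low signal, and a missed threshold is not read as no change.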
